A study of Mus musculus with 13 samples.

Results

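Il7r, Sit1, Shb, Tox and Bach2, 5 genes that T cells use for cytokine reception, receptor signalling and transcriptional identity, were followed among 56923 gene IDs in RNA from CD45-positive cells of mouse tumours. They were taken by name, and every one of the 5 lies in 1 of 2 chromosome stretches in which gene names match their counts. Sit1 fell by 1.01 on the log2 scale in tumours of cells lacking PSGL-1. Il7r, Tox and Shb did not pass the main test over all libraries. In other fits over all libraries, Shb passed with the file number as a covariate and Tox with the scaling on the 2 stretches. Bach2, at a very low level, was called higher, but it entered the test through the knockout libraries and did not pass without the filter on low counts (adjusted p = 0.055, edgeR).

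The series asks whether PSGL-1, a selectin ligand of leukocytes, on tumour cells keeps macrophages from engulfing them by way of the integrin LFA-1. The 13 libraries came from subcutaneous tumours of EL4 cells, a mouse T-cell lymphoma line, and 7 were from tumours of vector cells and 6 from tumours of PSGL1 KO cells. Per the labels' protocols, 500000 cells were injected into the right flank of mice aged 6 to 8 weeks, and tumours were removed nearly 20 days later. They were digested, CD45-positive cells were sorted by flow cytometry and their total RNA was sequenced. Both groups therefore share the EL4 background, the site and the sort, and differ in the vector or the knockout carried by the injected cells. The sources used here give neither the mouse strain nor whether the knockout line was 1 clone. EL4 cells are themselves of the T lineage, so the T cells in this sort include the lymphoma. In bulk RNA of this kind, fewer cells of a type and less RNA of a gene per cell cannot be told apart. Libraries count as replicates by their titles alone, which tie none of them to a mouse, so a p-value here speaks of the spread among libraries, which may be technical.

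IL-7 receptor alpha, encoded by Il7r, pairs with the common gamma chain and carries the IL-7 signal that keeps naive and memory T cells alive. Signals from the T-cell receptor pass through adaptor proteins. Among them SIT1 is a transmembrane adaptor that tempers the signal, and SHB is a cytoplasmic adaptor with an SH2 domain that couples the receptor to downstream partners. TOX is an HMG-box nuclear factor needed for T-cell development in the thymus and known for its part in exhausted T cells. BACH2 is a basic leucine zipper repressor that holds lymphocytes back from effector differentiation, in T cells and in B cells.

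Gene IDs received 3710817 to 5712566 counts per library. Over most of the genome, gene names do not match counts: of 20 genes that nearly all cells use, the 11 outside the 2 stretches had a median of 0.524 CPM (gene counts scaled to a common library total) and the 9 inside 1805 CPM. Selplg, the gene of PSGL-1, lies outside on chromosome 5, with 11 to 53 counts in vector and 3 to 63 in PSGL1 KO libraries, so it cannot check the labels. The genes of CD45 and of the T-cell receptor chains also lie outside, and only 2 of 17 T-cell markers, Il7r and Sit1, lie inside, so that other T-cell markers could not show from which cells the reads of the 5 genes came. Mitochondrial IDs took 34.5% of the counts of vector replicate 5, the most of any library. File numbers start with 3 in 2 libraries of each group and with 7 in 5 vector and 4 PSGL1 KO libraries, and the labels do not say what the number stands for. With the groups in the model, 39.8% of the 10422 IDs tested differed between the file numbers.

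Near each of the 5 genes, protein-coding IDs carried many counts far more often than other IDs. Within 1 Mb of Shb, 20 of 27 protein-coding IDs reached 20 CPM, and 1 of 25 noncoding or pseudogene IDs did. Near Sit1 the counts were 27 of 55 and 1 of 21, near Bach2 7 of 14 and 1 of 19, near Il7r 7 of 14 and 0 of 3, and near Tox 3 of 5 and 1 of 15. Outside the stretches, 17.1% of protein-coding IDs in the nuclear genome reached that level. These shares describe the neighbourhoods and were part of how the stretches were chosen.

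**Figure D1:**
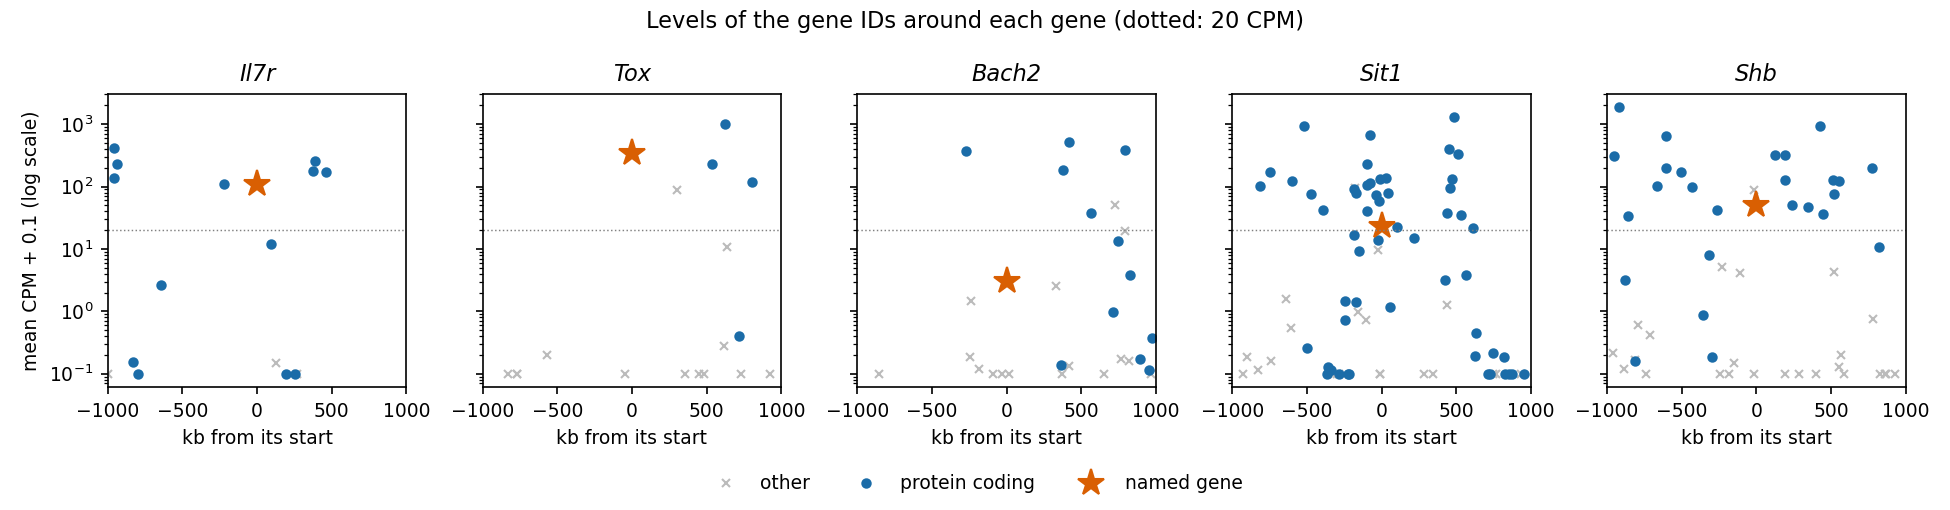
Mean CPM plus 0.1 over 13 libraries (log axis) of gene IDs against their distance from the start of each gene in kb, along its direction of transcription. Blue points are protein-coding IDs, grey crosses other IDs and the star the named gene. Protein-coding IDs lie above the dotted line at 20 CPM far more often than other IDs do, 20 of 27 against 1 of 25 around Shb.

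Levels per kb of exon, from CPM normalised by TMM (trimmed mean of M values) and the exon lengths of GENCODE M21, put Tox first and Bach2 last. In vector libraries Tox had 48.4 ± 10.3 CPM per kb (SD, n = 7), Sit1 23.8 ± 7.37, Il7r 23.7 ± 2.90 and Shb 14.4 ± 6.04. Bach2 had 0.18 ± 0.04 CPM per kb there. The ranges of Sit1, Il7r and Shb overlapped each other, and those of Tox and Bach2 overlapped no other. In PSGL1 KO libraries the order was Tox with 41.2 ± 5.98 CPM per kb (SD, n = 6), Il7r with 23.4 ± 7.61, Shb with 17.8 ± 4.42, Sit1 with 11.9 ± 1.91 and Bach2 with 0.41 ± 0.16. There Il7r overlapped Shb and Sit1, Shb overlapped Sit1, and Tox and Bach2 again stood alone.

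Of the 5 genes, 1 was higher and 1 lower in PSGL1 KO tumours at an adjusted p below 0.05, in edgeR's quasi-likelihood test with Benjamini-Hochberg adjustment over all IDs tested. Over the 10422 IDs, 14.5% passed, 9.02% as higher and 5.49% as lower. DESeq2 on the same filtered IDs, of which 18.2% passed, called the same 2 genes in the same directions. The higher gene, Bach2, was admitted by that filter through PSGL1 KO libraries, so this second call is no independent support for it. Among 271 protein-coding genes tested in the 2 stretches, 59 were higher and 6 lower. The median log2 fold change (log2FC, PSGL1 KO minus vector) of the 5 genes was -0.02, beside -0.01 over all IDs and 0.23 over those 271.

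Il7r (GRCm38 chromosome 15, 9505788 to 9530176, minus strand) did not differ detectably between the groups. Vector libraries ran from 90.2 to 127.7 CPM with a median of 114.3, and PSGL1 KO libraries from 61.3 to 157.1 CPM with a median of 100.1. The PSGL1 KO libraries were spread more widely, with both the highest and the lowest value of the 13, and the groups overlapped. The log2FC was -0.02 with an SE of 0.19 (95% interval -0.41 to 0.37, adjusted p = 0.96 in the edgeR test). This near-zero value joined opposite ones. With file number 3, the 2 PSGL1 KO libraries had 157.1 and 143.5 CPM and the 2 vector libraries 113.6 and 115.4 CPM. With file number 7, the 4 PSGL1 KO libraries had 92.1, 106.6, 61.3 and 93.6 CPM, beside 90.2 to 127.7 CPM in the 5 vector libraries. Both PSGL1 KO libraries were thus above both vector libraries in the first set, while the second set overlapped. Neither value passed, with a log2FC of 0.42 (adjusted p = 0.097) and -0.30 (adjusted p = 0.19). The difference between the 2 values, 0.69 ± 0.26, had an unadjusted p of 0.016 and an adjusted p of 0.16, where 2.11% of all IDs passed.

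Sit1 (chromosome 4, 43482081 to 43483734, minus strand) was the gene of the 5 that fell. Its vector libraries had 20.6 to 44.6 CPM with a median of 28.3, from 86 to 205 counts, and its PSGL1 KO libraries 12.2 to 18.8 CPM with a median of 14.5, from 58 to 90 counts. All 6 PSGL1 KO libraries lay below every vector library, a pattern found in 2.41% of IDs tested. The log2FC was -1.01 ± 0.21 (95% interval -1.44 to -0.57, adjusted p = 0.0026 in the edgeR test). The 2 highest libraries were vector replicates 1 and 2, with 40.4 and 44.6 CPM, and both have file number 3. The other 5 vector libraries, with file number 7, had 20.6 to 31.2 CPM and still lay above the 4 PSGL1 KO libraries of that number, at 12.2 to 16.7 CPM. Sit1 passed within each set, with a log2FC of -0.82 (adjusted p = 0.0044) in number 7 and -1.34 (adjusted p = 1.6e-05) in number 3, on 2 libraries per group. The number 3 fit pooled the spread over IDs, so its p-values do not measure a gene's own spread among these few libraries. The difference between these values did not pass (adjusted p = 0.36).

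The place of Sit1 among its neighbours was unlike theirs. Of the 271 protein-coding genes tested in the stretches, only Spef2, a sperm flagellar gene, had a lower log2FC, at -1.10 (adjusted p = 0.043, edgeR). Spef2 is no neighbour of Sit1 but lies 48.0 kb from Il7r on chromosome 15. Cd72, a lectin-like receptor found on B cells that dampens their signalling, ends 27.5 kb away on the side of lower coordinates and rose (log2FC 2.27, adjusted p = 6.2e-06). Ccdc107, 9.2 kb away on the other side, had 0.35 with adjusted p = 0.16. No other gene of GENCODE M21 overlaps Sit1 or Il7r.

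Shb (chromosome 4, 45423278 to 45532470, minus strand) was split first by the file number. The 4 libraries of number 3 had 17.4 and 22.0 CPM in vector and 33.8 and 47.5 CPM in PSGL1 KO. The 5 vector libraries of number 7 had 45.3 to 68.1 CPM, and the 4 PSGL1 KO libraries 58.0 to 71.4 CPM. Every library of number 3 except PSGL1 KO replicate 2 was below all libraries of number 7. Over all libraries, the groups overlapped, at 46.1 ± 19.3 CPM (SD, n = 7) in vector and 56.9 ± 14.1 CPM (SD, n = 6) in PSGL1 KO. The log2FC was 0.31 ± 0.27 (95% interval -0.27 to 0.88, adjusted p = 0.52). With the file number as a covariate it was 0.43 ± 0.15 and passed (adjusted p = 0.037), in a fit where 25.8% of IDs passed. Within number 3, where 23.2% of IDs passed and the spread was pooled over IDs, it was 1.07 ± 0.26 (adjusted p = 0.00071). Within number 7 it was 0.19 ± 0.14 (adjusted p = 0.35), and the difference between the 2 values, 0.84, did not pass (adjusted p = 0.098).

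**Figure D2:**
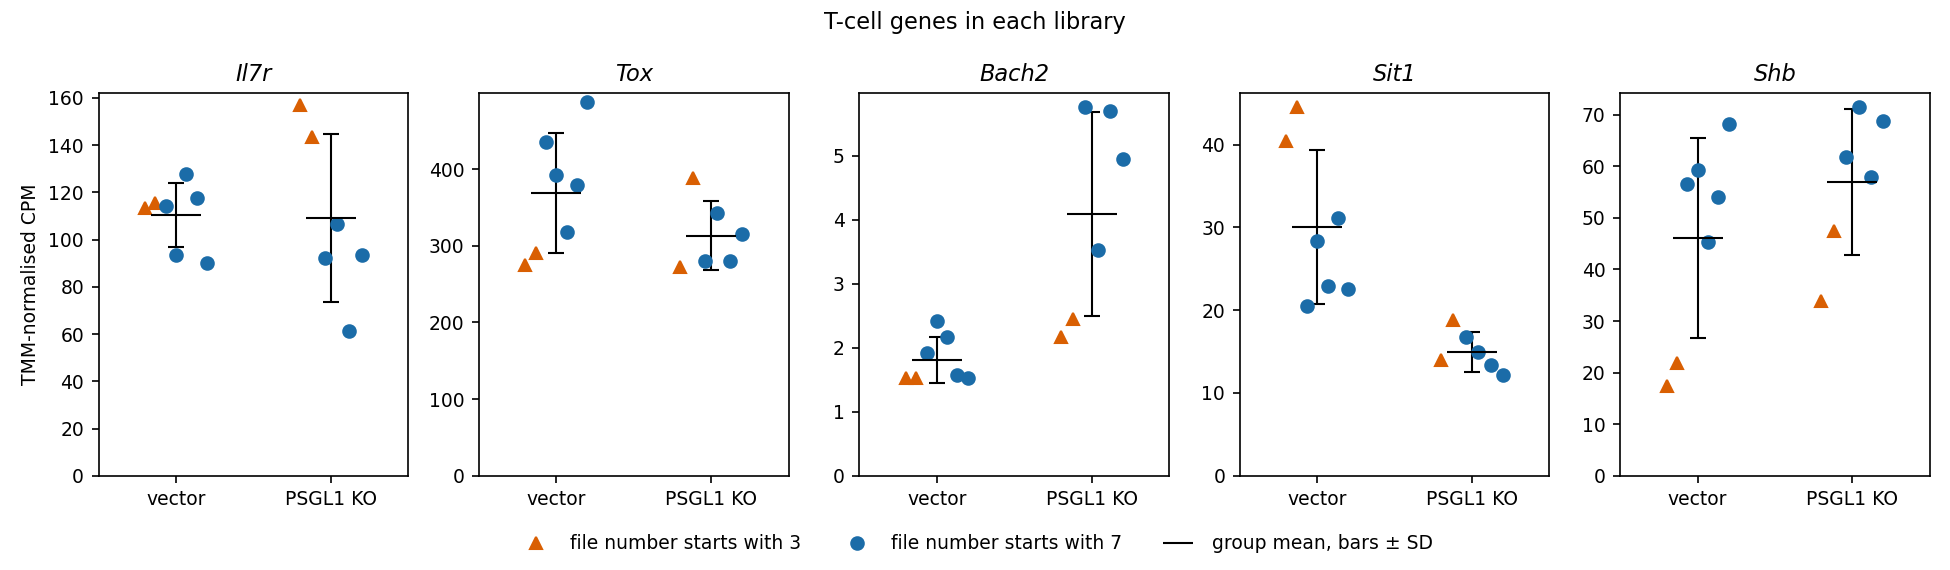
TMM-normalised CPM of each gene in each library, by group, on linear axes from 0. Orange triangles are libraries with file number 3, blue circles those with 7, and black bars the group mean ± SD (7 vector and 6 PSGL1 KO libraries). All 6 PSGL1 KO libraries of Sit1 lie at or below 18.8 CPM, under every vector library.

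Tox (chromosome 4, 6686353 to 6991557, minus strand) was the most abundant of the 5 per kb and did not pass the main test over all libraries. Vector libraries had 275.0 to 487.6 CPM with a median of 379.8, and PSGL1 KO libraries 272.8 to 388.1 CPM with a median of 298.0. The groups overlapped, with 1 PSGL1 KO library below every vector library and 0 above. The log2FC was -0.23 ± 0.16 (95% interval -0.56 to 0.10, adjusted p = 0.36 in the edgeR test). Within file number 7, where 20.8% of IDs passed, Tox fell by 0.41 ± 0.13 on the log2 scale (adjusted p = 0.032). There the vector libraries had 435.0, 392.4, 317.5, 379.8 and 487.6 CPM and the PSGL1 KO libraries 280.3, 343.3, 279.6 and 315.7 CPM, and 3 of these 4 were below every vector library of that number. In file number 3 the vector libraries had 275.0 and 290.6 CPM, and the PSGL1 KO libraries 272.8 and 388.1 CPM, 1 below and 1 above them. The difference between the file numbers was 0.63 ± 0.24, with an unadjusted p of 0.016 and an adjusted p of 0.15. Exons of Tox share 260 bp with those of Gm11802, an antisense gene, which had 91.3 ± 17.2 CPM in vector and 86.3 ± 12.0 CPM in PSGL1 KO libraries. The sources used here do not give the strand setting of the counting, so it is not known to which gene reads in the shared bases were assigned.

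Bach2 (chromosome 4, 32238804 to 32586108, plus strand) was called higher, on few counts and subject to the filter on low counts. Vector libraries had 6 to 11 counts, or 1.52 to 2.42 CPM with a median of 1.58. PSGL1 KO libraries had 9 to 34 counts, or 2.17 to 5.76 CPM with a median of 4.23. In PSGL1 KO 5 of 6 libraries were above every vector library, and replicate 1, at 2.17 CPM, was below vector replicate 4, at 2.42 CPM. The log2FC was 1.18 ± 0.31 (95% interval 0.54 to 1.83, adjusted p = 0.014 in the edgeR test). The 4 PSGL1 KO libraries of file number 7 had 5.76, 3.52, 5.70 and 4.94 CPM, beside 1.53 to 2.42 CPM in the vector libraries of that number. Within number 7 the log2FC was 1.36 (adjusted p = 0.0063). The libraries of number 3 had 1.53 and 1.52 CPM in vector and 2.17 and 2.45 CPM in PSGL1 KO, with 9 counts in each of the latter, too few to be tested there. Its group difference in number 3 minus that in number 7 was -0.77 ± 0.65, which did not pass (adjusted p = 0.57).

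The test of Bach2 depended on its low counts. It passed the filter through PSGL1 KO, where 6 of 6 libraries reached the limit of 2.18 CPM, as against 1 of 7 vector libraries. Admission through the group in which a gene is high favours a difference, so the pass is no independent support for the rise. With no filter on low counts, where 5.81% of 31223 IDs passed, the log2FC was 1.19 ± 0.41 and adjusted p = 0.055, which does not pass. Exons of Bach2, 9940 bp in all, share 537 bp with those of the antisense gene Bach2os, which had 3 to 32 counts per library, about as many as Bach2. To which gene reads in the shared bases were assigned is not known. The means of Bach2os were 1.95 ± 0.65 CPM in vector and 3.04 ± 1.71 CPM in PSGL1 KO libraries.

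**Figure D3:**
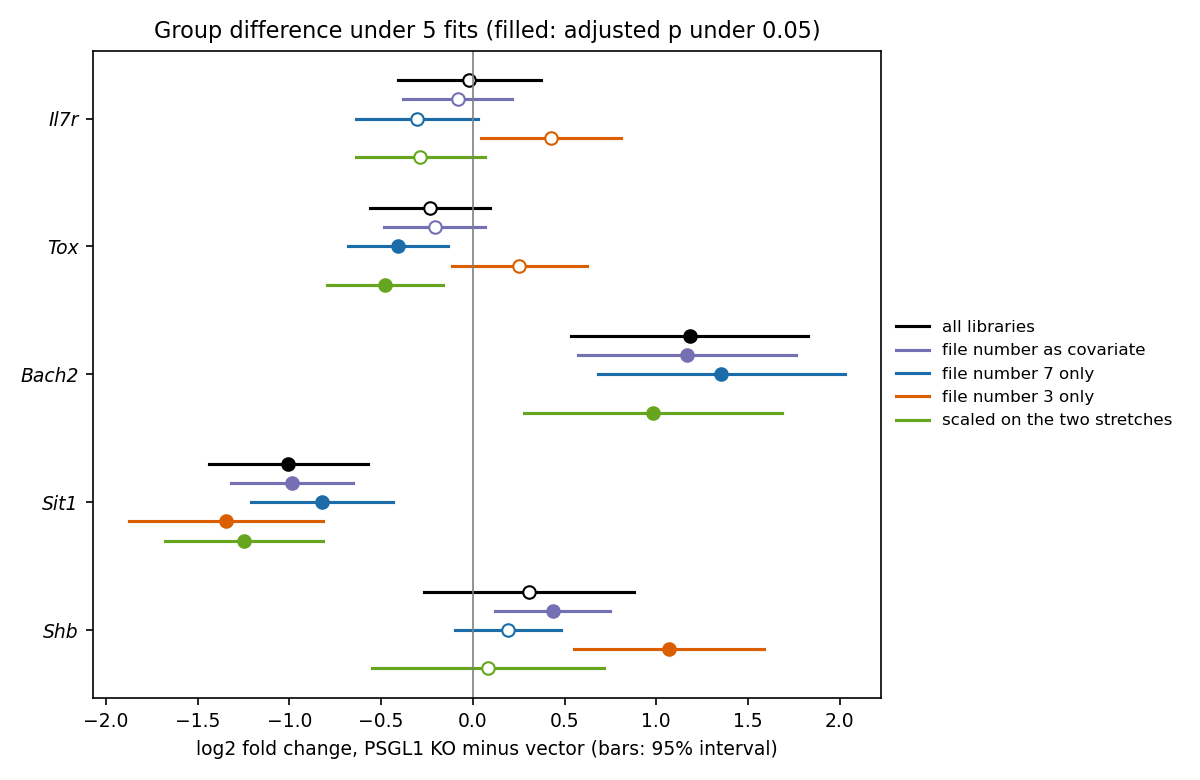
Log2 fold change, PSGL1 KO minus vector, of each gene under 5 edgeR fits, with 95% intervals. Filled points have an adjusted p under 0.05, and Bach2 could not be tested in file number 3. Sit1 is at -0.82 or lower and filled in all 5 fits, while Il7r and Tox have opposite signs in file numbers 3 and 7.

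The 2 sets of libraries named by file number differed in 3 of the 5 genes, 2 higher and 1 lower in number 3, where 39.8% of IDs passed, 18.9% as higher and 20.9% as lower. With the groups in the model, Shb was lower in number 3, with a log2 difference (number 3 minus 7) of -1.08 ± 0.17 and adjusted p = 5.9e-05 in the edgeR test. Sit1 was higher in number 3, with 0.51 ± 0.17 and adjusted p = 0.019, and so was Il7r, with 0.42 ± 0.15 and adjusted p = 0.031. Bach2 had -0.75 ± 0.33 with adjusted p = 0.078, and Tox -0.19 ± 0.14 with adjusted p = 0.30. Shb passed within vector libraries alone (-1.49), where 31.4% of IDs passed, and within PSGL1 KO libraries alone (-0.70), where 32.2% did. Sit1 passed within vector alone (0.78, adjusted p = 0.0075), and within PSGL1 KO it had 0.18 with adjusted p = 0.64. For Il7r this was the other way round, with 0.10 (adjusted p = 0.66) within vector and 0.75 (adjusted p = 0.013) within PSGL1 KO. Tox passed within vector (-0.48, adjusted p = 0.031) and had 0.10 (adjusted p = 0.69) within PSGL1 KO. Bach2 passed within PSGL1 KO (-1.12, adjusted p = 0.041) and was not kept by the filter within vector. Which genes passed also changed when the scaling rested on the 2 stretches, where 40.7% of IDs passed. Sit1 and Il7r then did not pass, with 0.34 and 0.24, while Tox (-0.38, adjusted p = 0.013), Bach2 (-0.94, adjusted p = 0.037) and Shb (-1.27, adjusted p = 4.9e-06) did.

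**Figure D4:**
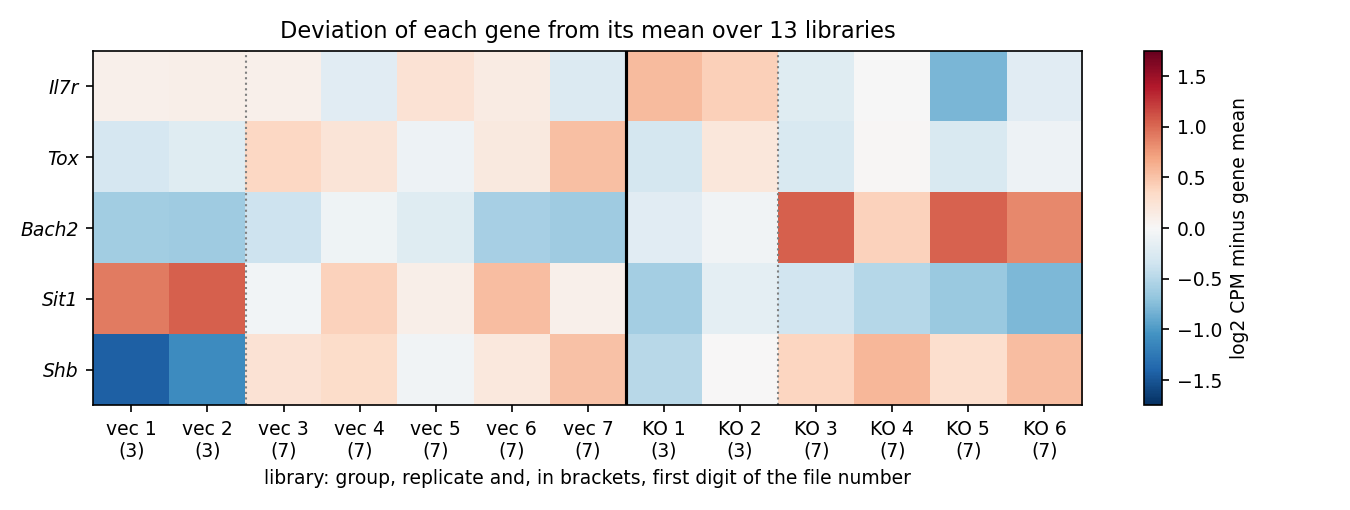
Log2 CPM (prior count 2) of each gene minus its own mean over the 13 libraries, shown by colour from blue (lower) to red (higher), with libraries ordered by group and, within it, by file number. The solid line divides vector from PSGL1 KO libraries and the dotted lines divide file number 3 from 7. Sit1 and Shb run opposite to each other in vector replicates 1 and 2, and Bach2 is red in PSGL1 KO replicates 3 to 6.

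The scaling of the libraries moved the 5 genes together. With TMM factors from the protein-coding IDs of the 2 stretches, the median log2FC of all IDs moved from -0.01 to -0.24, and 585 IDs were called higher and 1461 lower in place of 940 and 572. Tox then passed as lower, with -0.48 and adjusted p = 0.034, in a fit where 19.6% of IDs passed. Sit1 had -1.25 (adjusted p = 0.00045), Bach2 0.98 (adjusted p = 0.048), Il7r -0.29 (adjusted p = 0.24) and Shb 0.08 (adjusted p = 0.87), all with the sign they had before. Relative to the median of all IDs, the values moved little: Tox was at -0.22 with the first scaling and -0.23 with the second, Bach2 at 1.20 and 1.23, Shb at 0.32 and 0.33, and Il7r at -0.01 and -0.04.

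Ratios of the counts of 2 of the genes within a library do not depend on the scaling. The 10 pairs were added after the values had been seen, with 0.5 added to each count and exact two-sided permutation tests over the 13 libraries. The ratio of Bach2 to Sit1 was higher in PSGL1 KO by 2.01 log2 units, from -3.94 ± 0.60 in vector to -1.93 ± 0.70, with all libraries of the groups apart. Its exact p of 0.0012 is the smallest these permutations can give, and the adjusted p over the 10 pairs was 0.012. Bach2 had already been called higher and Sit1 lower in the same 13 libraries. The p-values of this ratio therefore restate those calls and are no independent support for either. The same limit holds for the other ratios with Sit1. Within file number 7 the difference in Bach2 to Sit1 was 2.11 (exact p = 0.016, the smallest possible there), and within number 3 it was 1.95. The ratio of Sit1 to Shb was lower by 1.37 log2 units (exact p = 0.0082, adjusted p = 0.020), and by 1.01 within number 7 and 2.41 within number 3. Sit1 was also lower against Il7r and against Tox, with Il7r over Sit1 at 0.88 (exact p = 0.0070, adjusted p = 0.020) and Tox over Sit1 at 0.74 (exact p = 0.021, adjusted p = 0.035). Within number 7 neither of these last differences passed, at 0.49 and 0.41, with exact p of 0.095 and 0.13. Il7r over Tox differed by 0.14 (exact p = 0.58).

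Other genes of T-cell signalling and identity could be followed in small numbers. Of 34 genes listed for T-cell receptor signalling, 4 lie in the stretches, and beside Sit1 and Shb these are Map3k7 and Ptpn3, neither of which passed. Map3k7, the kinase TAK1 that relays receptor signals to NF-kB, had 361.0 ± 58.0 CPM in vector and 393.2 ± 70.4 CPM in PSGL1 KO libraries, a log2FC of 0.12 that turned to -0.12 when the scaling rested on the 2 stretches. Ptpn3, a protein tyrosine phosphatase, had 2.85 ± 1.70 and 5.41 ± 2.70 CPM (log2FC 0.94, adjusted p = 0.15). In the list of IL-7 and common gamma chain signalling, Il7r was the only 1 of 23 inside the stretches.

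Among 39 listed transcription factors of T cells, 5 lie in the stretches, 4 were tested and 2 were higher in PSGL1 KO. These were Bach2 and Nr4a3, a nuclear receptor induced when lymphocytes are activated, with 8.22 ± 1.47 CPM in vector and 17.5 ± 4.48 CPM in PSGL1 KO libraries. All 6 PSGL1 KO libraries were above every vector library in Nr4a3, as in 4.14% of IDs, and its log2FC was 1.09 ± 0.21 with adjusted p = 0.0013 in the edgeR test. Klf4, a zinc-finger factor of quiescent cells that myeloid cells also use, had 0.81 with adjusted p = 0.075. It passed under 7 of the alternatives, among them DESeq2 (0.81, adjusted p = 0.047), no filter (0.81, adjusted p = 0.012) and the fits without vector replicate 6 (1.03, adjusted p = 0.023) or PSGL1 KO replicate 3 (0.97, adjusted p = 0.025). Tal2, with 0 to 6 counts per library, was not tested. Of 10 chemokines that attract T cells, 5 lie in the stretches, and Ccl19, Ccl21a, Ccl21b and Ccl27b had 0 counts in all 13 libraries. Alignments that were not unique, 7.7% to 13.6% of a table's total, were counted for no gene. These 0 counts therefore do not show that the RNA was absent. Ccl27a, which has near copies and shares exons with Il11ra1, rose from 1.56 ± 0.96 to 4.19 ± 1.92 CPM (log2FC 1.38, adjusted p = 0.029). Its vector mean lay under the filter limit of 2.18 CPM and its PSGL1 KO mean above it. As with Bach2, its pass is therefore no independent support for the rise. The call of Ccl27a was lost, with values of 1.27, 1.24 and 1.15, without vector replicate 6, vector replicate 7 or PSGL1 KO replicate 2 (adjusted p = 0.060, 0.056 and 0.075). It was also lost within file number 7 (1.15, adjusted p = 0.080) and with the scaling on the 2 stretches (1.13, adjusted p = 0.061). Of the 10 list genes tested, the 5 followed here included, 3 were higher, Bach2 and Ccl27a among them, and 1 was lower. Of all IDs, 9.02% were higher and 5.49% lower, as were 59 and 6 of the 271 protein-coding genes of the stretches. The median log2FC of the 10 list genes was 0.56, beside -0.01 over all IDs and 0.23 over the protein-coding genes of the stretches. It includes Bach2 and Ccl27a, at 1.18 and 1.38, which the filter admitted through the group in which they are high. The median is therefore no support for a shift of the T-cell lists.

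Markers of other cells were measured in the same comparison, in which 59 of the 271 protein-coding genes tested in the stretches were higher and 6 lower. For macrophages and other myeloid cells 2 of 12 listed markers lie in the stretches, Lyn and Atp6v0d2, and both rose. Their summed level was 61.3 to 147.7 CPM in vector and 270.2 to 490.9 CPM in PSGL1 KO libraries. Mean Lyn went from 58.2 ± 10.8 to 244.9 ± 55.9 CPM, and mean Atp6v0d2 from 55.0 ± 21.9 to 109.7 ± 43.0 CPM. B cells also use Lyn, so its rise does not single out myeloid cells. For B cells 2 of 10 lie inside, Pax5 and Cd72, with 29.7 to 77.0 CPM and 151.6 to 319.2 CPM in sum. Cd72 passed and Pax5 did not, at 0.69 with adjusted p = 0.10. For stromal and endothelial cells 8 of 18 lie inside, 6 were tested, and Svep1, Lpar1, Sdc2 and Reck rose, with 138.0 to 200.8 CPM and 159.0 to 363.1 CPM in sum over the 8. None of these markers inside the stretches was at 0 in all libraries, and none was called lower. For natural killer cells 0 of 7 and for neutrophils 0 of 5 lie inside. The part of such cells in the values of Sit1 and Bach2 was not tested.

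**Figure D5:**
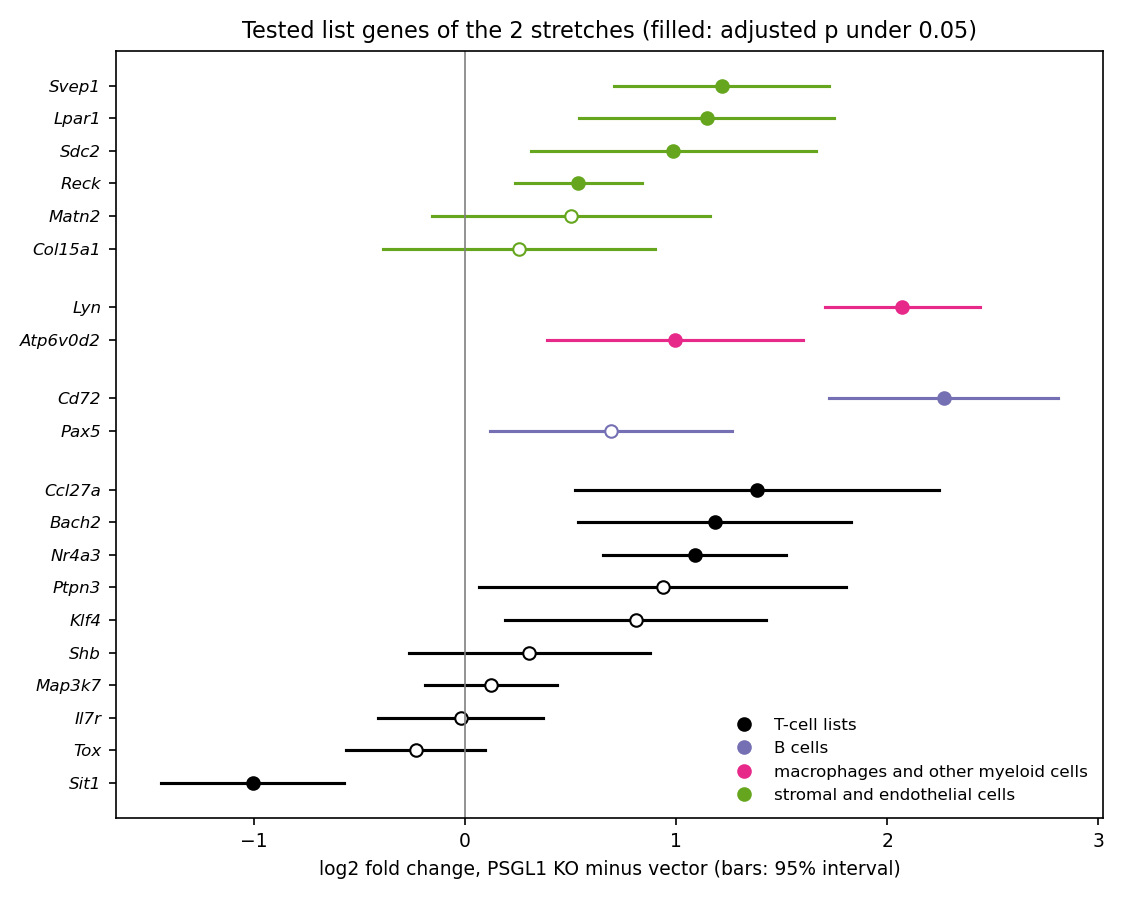
Log2 fold change, PSGL1 KO minus vector, with 95% intervals, of every tested list gene in the 2 stretches: T-cell lists in black, markers of B cells in purple, of myeloid cells in pink, of stromal and endothelial cells in green. Filled points have an adjusted p under 0.05. Sit1, at -1.01, is the only filled point below 0, and Cd72, at 2.27, is the highest.

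The genes whose course over the libraries came closest to each of the 5 were sought among 266 other protein-coding genes tested in the stretches. The measure was the root mean square difference, over 13 libraries, of log2 CPM centred on each gene's mean. It includes the difference between the groups, so the direction of a near gene's log2FC follows in part from how it was chosen and is given as a description. For Sit1 the nearest were Rnf19a (0.30 log2 units), Grhl2 (0.31) and Vps13b (0.40), against a median of 0.73 over all 266. The log2FC of Rnf19a was -0.74 and that of Grhl2 -0.66. These 2 genes passed (adjusted p = 0.0076 and 0.0066). Nearest to Bach2 were Chd7 (0.29), Atp8b5 (0.35) and Tbc1d2 (0.36), all of which were higher in PSGL1 KO, with log2FC of 0.84, 0.76 and 0.95. For Shb these were Ube2r2 (0.22), Alg2 (0.22) and Dap (0.23), for Tox Zfp706 (0.18), Aldh1b1 (0.18) and Nans (0.19), and for Il7r Topors, Polr1e and Rngtt (0.23 each), none of which passed. Between the 5 genes themselves, Il7r and Tox were closest, at 0.42, and Bach2 and Sit1 farthest, at 1.10, with Sit1 and Shb next at 1.07.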

How the data were processed

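The authors deposited raw counts of reads by gene ID, 1 table for each of 13 libraries. The submitters' processing notes name mm10 as the build and HISAT2, SAMtools and HTSeq as tools. The sources used here state no versions, no annotation release and no strand setting. A table lists 56923 gene IDs and 5 HTSeq summary rows, and the summary rows entered neither library sizes nor tests. Their row for reads on no feature took 67.3% to 75.4% of a table's total, and the gene IDs took 10.5% to 12.5%. IDs without their version were matched to symbols (52073 matched) and to GENCODE M21 coordinates on GRCm38, the assembly also called mm10. Names were used only in the stretches of chromosome 4 from 3.55 to 59.8 Mb and chromosome 15 from 9.07 to 38.08 Mb. The 5 genes, the stretches, lists and fits were chosen with earlier results of these data known.

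Counts were fitted with edgeR 4.0.16 in R 4.3.3 (filterByExpr, TMM factors, robust quasi-likelihood test, group as the only term), with Benjamini-Hochberg adjustment over all 10422 IDs kept and a threshold of 0.05. The biological coefficient of variation from the common dispersion was 29.4%. The fit was tested on simulated data for this comparison, with 10283 genes. It called 62 of the 97 genes given a 2-fold change, 96 of the 96 given a 4-fold change, and 6 of the 10090 left unchanged. The simulation used a single dispersion throughout and built in no effect of the file number. In the real libraries 39.8% of IDs tested differed between the file numbers. The simulated rates therefore need not hold for the real libraries. Alternatives were DESeq2 1.42.0, other scalings and filters, the file number as a covariate, each file number alone, a replicate block and leaving out each library. Exact permutation tests used scipy 1.17.1. Libraries of a group were compared pairwise by the chi-square of their counts, and the closest pair had a mean of 2.99 per ID, so none was counted as a duplicate. Vector replicates 3, 4 and 7 lay at 2.99 to 3.64 from each other. Vector replicate 5 lay at 53.0 to 84.2 from the other vector libraries. Whether the close libraries share an origin was not tested. Genes named are the 5, the list genes and markers inside the stretches, and the 3 nearest in course to each of the 5. Spef2, Ccdc107 and Cd72 as neighbours, and the antisense partners, were named after their values had been seen.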

Additional observations from a re-analysis of the deposited data

How the results depend on the processing

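Leaving out each of the 13 libraries in turn, Sit1 had a log2FC from -1.07 to -0.87 and Bach2 from 1.07 to 1.30, with adjusted p of at most 0.0092 and 0.045. For Bach2 these fits share the filter that admits it through PSGL1 KO libraries, so they are no support for its call. Il7r ran from -0.15 to 0.10 and changed sign without vector replicate 2, 3, 5 or 6 and without PSGL1 KO replicate 3, 4, 5 or 6. Tox ran from -0.30 to -0.16 and Shb from 0.16 to 0.42, and neither passed in any of these fits. Over the whole table, 753 to 1034 IDs were higher and 425 to 607 lower, and 2 to 4 list genes were higher and 1 lower.

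Within file number 3, Il7r had 0.42 and Tox 0.25, against negative values over all libraries, and Shb 1.07. In file number 7, Tox had -0.41. With the file number as a covariate Shb had 0.43, and with the scaling on the 2 stretches Tox had -0.48 and Map3k7 -0.12. With no filter Bach2 had 1.19 and did not pass, and the filter at a mean of 5 CPM removed Bach2. With DESeq2 on the same filtered IDs, as with edgeR, Sit1 and Bach2 passed and Il7r, Tox and Shb did not. For Bach2 the shared filter makes this no independent support.

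The difference between file numbers 3 and 7 was 0.10 for Il7r and -0.48 for Tox in vector libraries alone, and in PSGL1 KO libraries alone 0.10 for Tox, against -0.19 over both groups, -1.12 for Bach2 and 0.18 for Sit1. With the scaling on the 2 stretches, an alternative chosen after seeing the data, it was 0.24 for Il7r, -0.38 for Tox, -0.94 for Bach2 and 0.34 for Sit1. For these changes the cause was not tested.

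Calls over all IDs were 585 higher and 1461 lower with the scaling on the 2 stretches, and 1435 and 1254 with the covariate. Lower calls were 1038 in file number 7 and 1135 in file number 3. List genes called higher were 1 with the filter at 5 CPM and 5 with the covariate, and 2 were called lower with the scaling on the 2 stretches and in file number 7.

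The replicate numbers gave no clear sign of pairing. Same-numbered pairs had correlations of their deviations from -0.05 to 0.60, above 0.1 in 4 of 6, and 2 of 6 PSGL1 KO libraries correlated best with their own number. Such pairs also share the file number, and other pairs within a file number ran from -0.11 to 0.50. The check therefore cannot decide whether libraries are paired. With a replicate block on replicates 1 to 6, Shb passed at 0.51 (adjusted p = 0.031), Ptpn3 and Klf4 also passed (adjusted p = 0.035 and 0.041), list genes called higher were 6, and calls over all IDs were 1167 higher and 953 lower. The log2 difference of the ratio of Il7r to Tox ran from -0.0135 without PSGL1 KO replicate 1, where it changed sign, to 0.265 without PSGL1 KO replicate 5. At 6 to 34 counts per library, counting error limits Bach2.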
